A study of Homo sapiens with 6 samples.

Results

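Genes of the extracellular matrix and of its assembly were examined in SKOV3 cells, an established human ovarian cancer cell line. The set holds 55 genes that encode collagens, laminins, linker proteins and proteoglycans of basement membranes, microfibril and matricellular proteins, collagen-modifying and crosslinking enzymes, and matrix proteases. The members were given as a list of names, and each was read by the brightest array probe set that names that gene alone. Of the 55, 54 had such a probe set, out of 19775 genes that had one, and LAMA3 was not analysed here. One group of 3 arrays, called miR21, came from cells given 5 nM of a miR21 precursor, and the control group of 3 arrays from cells given a negative control precursor, whose dose the labels do not state apart. RNA was taken 24 h after transfection in both, from cells grown in RPMI1640 with fetal bovine serum. Untransfected cells were not analysed here, so both groups carry the effects of transfection itself. The labels do not say that replicates came from separate cultures, and the p-values measure the spread between these arrays, which may be technical.

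The extracellular matrix is the secreted scaffold on which cells sit. Basement membranes are sheets of laminin and type IV collagen held together by nidogens and perlecan, while the interstitial matrix is built from fibrillar collagens, fibronectin and fibrillin microfibrils. Hydroxylases act on collagen chains inside the cell, lysyl oxidases crosslink the fibres outside it, and proteases of the ADAMTS family trim proteoglycans. In ovarian tumours much of the interstitial matrix is laid down by fibroblasts, while carcinoma cells also make matrix of their own, basement membrane proteins among it.

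The mature microRNA that the precursor supplies is shown because its seed, bases 2 to 8 and here in capitals, is the stretch by which it pairs with target transcripts. It is taken from RefSeq, on GRCh38.p14, at chr17:59841273-59841294 on the plus strand.
hsa-miR-21-5p: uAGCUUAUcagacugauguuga

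Values are MAS5 signals, linear brightness values per probe set that were scaled to the same trimmed mean on every array, and differences are given as log2 of miR21 over control. Arrays that carry the same replicate number, 1 to 3, deviated together across the groups, so differences are also given within each number. The arrays of number 1 stood apart: the median log2 signal over all probe sets was 6.87 (miR21) and 6.97 (control) there, against 5.79 to 5.95 on the other 4 arrays. Epithelial and ovarian carcinoma markers were present, with 8 of 10 above the detection filter, although CLDN4 and MUC16 were below it. Of 10 fibroblast markers 6 were below the filter, among them PDGFRA, PDGFRB, FAP and COL3A1, while THY1, ACTA2, COL1A1 and COL1A2 were above it. The markers DCN, LUM, COL1A1, COL1A2 and COL3A1 are also members of the matrix set, so this list is not separate from it. Below the filter were also 5 of 6 endothelial markers and all 5 leukocyte markers that had a probe set. The summed fibroblast marker signal was 583 to 1750.0 on miR21 arrays and 737 to 1695 on control arrays.

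A first division was between matrix genes that SKOV3 cells express well and those that they do not. On the control arrays, 41 members were well detected, which means that their mean log2 signal reached the median of all probe sets (6.12, a signal of 69.3), and 13 were dim. For the tests, genes were kept where the mean over all 6 arrays was at or above the filter (log2 6.03, which is a signal of 65.5 and the median over probe sets), which kept 12206 genes and 42 members. COL5A2 was dim on the control arrays and was kept through its miR21 arrays (mean log2 signal 6.66 with miR21, 5.88 in control). COL16A1 was kept through its control arrays (5.68 with miR21, 7.17 in control). In each of these genes the mean of the other group lay below the filter. COL4A5 lay just inside the filter, with a mean log2 signal of 6.19, and the proteoglycan gene BGN lay just outside it at 5.67.

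The 12 members below the filter were COL3A1, COL4A6, COL6A3, COL13A1, LAMA4, NID1, TNC, THBS2, POSTN, BGN, DCN and LUM. Most of these genes are known as products of fibroblasts and other mesenchymal cells: COL3A1 encodes a fibrillar collagen, POSTN a matricellular protein of tumour stroma, and DCN and LUM small leucine-rich proteoglycans. Their signals ranged from 2.88 to 182, and 4 of 72 values were over 100. For COL3A1 the signals were 13.9, 5.14 and 22.6 on miR21 arrays 1, 2 and 3, and 4.32, 10.5 and 21.3 on the control arrays. For LUM they were 131, 33.2 and 19.2 on the miR21 arrays and 110.0, 33.4 and 31.4 on the control arrays, so the array of number 1 was the highest in both groups. Among these dim members the groups overlapped for every gene. That is the usual case, as without the filter the groups did not overlap for only 5.84% of all 19775 genes. Differences within a number ranged from -1.55 to 2.21 in number 1, from -2.73 to 2.91 in number 2 and from -3.20 to 3.41 in number 3, a wide scatter with no shared direction.

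No matrix gene passed the test between miR21 and control. The fit (limma, adjusted over all 12206 genes) called 0 of 42 members at 0.05, against a background of 0% of all genes, and the lowest adjusted p among members was 0.9999. Without adjustment, 6 members were under the 0.05 limit in limma (background 2.44%), of which 1 was higher (background 1.18%) and 5 were lower (background 1.26%). With the replicate number as a block it again called 0 members, against 0.0328% of all genes, with a lowest adjusted p of 0.117. Its p before adjustment was below 0.05 for 13 members (background 20.1%), of which 3 were higher (7.14%, background 9.81%) and 10 lower (23.8%, background 10.3%). The 10 include COL16A1, which passed the filter through its control arrays, as its miR21 mean lay below the filter. The groups did not overlap for 6 members (background 6.65%), 2 on the higher side (background 3.38%) and 4 on the lower side (background 3.27%). In all 3 numbers 11 members were higher (26.2%, background 20.3%) and 12 were lower (28.6%, background 20.9%). COL5A2, kept through its miR21 arrays, is among the 11, and COL16A1 is among the 12.

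These 13 members are given in most detail below, within their roles, and none of their differences passed. Each SE in the text is from the limma fit without the block, and so includes the spread between numbers. With the block the SE was 0.57 for THBS1, 0.14 for COL4A2 and 0.19 for COL6A2, and none of these passed there either. Arrays read RNA of a whole culture, in which fewer cells of a kind and less RNA per cell cannot be told apart. For each of the 13 the difference within number 3 was smaller in size than those within numbers 1 and 2. Over all genes too, the median size was smaller in number 3 (0.205) than in numbers 1 and 2 (0.340 and 0.382).

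**Figure D1:**
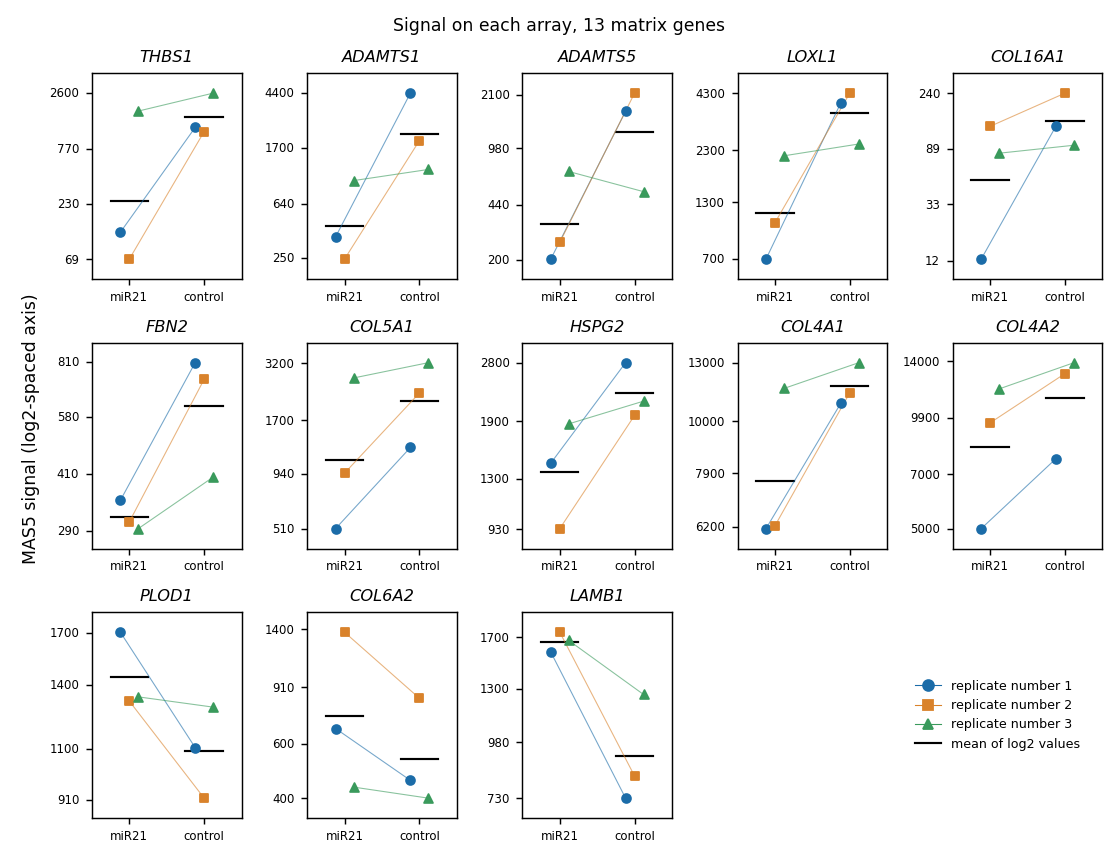
MAS5 signal on each array (log2-spaced axis, own range in each panel) for 13 matrix genes, with miR21 arrays left and control arrays right; symbols mark the replicate number, thin lines join arrays of one number and black bars are means of the log2 values. In 10 panels the miR21 mean is below the control mean, and in the panels of PLOD1, COL6A2 and LAMB1 it is above.

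THBS1, which encodes thrombospondin 1, a matricellular protein that inhibits the growth of blood vessels, was 6.16-fold lower with miR21 by the mean of log2 signals, the lowest of the kept members. Its signals were 124, 69.1 and 1742 on miR21 arrays 1, 2 and 3, against 1218, 1113 and 2576 on the control arrays. The miR21 arrays of numbers 1 and 2 were far below every control array, while that of number 3 lay within the control range. The log2 difference was -2.62 (SE 1.11, limma adjusted p = 0.9999), with -3.30, -4.01 and -0.56 within numbers 1, 2 and 3. All 4 THBS1 probe sets above the filter were lower with miR21, by mean log2 differences of -2.62, -1.29, -2.61 and -0.59. Of the other matricellular genes, SPARC, whose product binds collagen, had signals of 1237, 875 and 563 on the miR21 arrays and 836, 632 and 525 on the control arrays (log2 difference 0.38, SE 0.38). TNC, THBS2 and POSTN were dim.

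The proteases ADAMTS1 and ADAMTS5 cleave aggregating proteoglycans such as versican and aggrecan. ADAMTS1 had signals of 360.1, 245 and 957 on the miR21 arrays, against 4374, 1916 and 1162 on the control arrays. Every miR21 array was below every control array, and the control array of number 3 was the lowest of its group. The log2 difference was -2.28, or 4.87-fold lower (SE 0.64), with -3.60, -2.97 and -0.28 within the numbers. ADAMTS5 had signals of 202, 257 and 704 on the miR21 arrays, against 1659, 2149 and 529 on the control arrays. Here number 3 ran the other way, and the groups overlapped through it: the log2 difference was -1.89 (SE 0.66), with -3.03, -3.06 and 0.41 within the numbers. A second ADAMTS1 probe set differed by -2.46, and the 3 ADAMTS5 probe sets above the filter by -2.06 to -1.89. On that second ADAMTS1 probe set the groups overlapped. Its miR21 array of number 3, at 328, was above the control array of number 3, at 244, a difference of 0.43. VCAN, which encodes versican, was in the upper quartile of detection, with 8407, 6946 and 15123 on the miR21 arrays and 8607, 7337 and 12148 on the control arrays. Its log2 difference was 0.07 (SE 0.37), and its 5 probe sets above the filter lay between -0.08 and 0.09. The other 3 proteoglycan genes outside basement membranes, BGN, DCN and LUM, were dim.

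Among the crosslinking and collagen-modifying enzymes all 8 members were kept, 5 of them higher and 3 lower. LOXL1, a lysyl oxidase family enzyme known for elastic fibres, stood apart with signals of 696, 1038 and 2162 on the miR21 arrays, against 3865, 4302 and 2462 on the control arrays. The groups did not overlap, though the arrays of number 3 nearly met. Its log2 difference was -1.57 (SE 0.46, limma adjusted p = 0.9999), with -2.47, -2.05 and -0.19 within the numbers. PLOD1, which hydroxylates collagen lysines, had 1704, 1316 and 1337 on the miR21 arrays and 1106, 915 and 1287 on the control arrays. The groups did not overlap, and the log2 difference was 0.40 (SE 0.29), with 0.62, 0.53 and 0.06 within the numbers.

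The other family members were closer to 0 or less precise. LOX, the founding lysyl oxidase, had 516, 345 and 91.8 on the miR21 arrays and 325, 225 and 83.4 on the control arrays (log2 difference 0.47, SE 0.77), with a wide spread between numbers in both groups. LOXL2 had 2037, 2984 and 5529 on the miR21 arrays and 1816, 2737 and 4759.7 on the control arrays (0.17, SE 0.49). LOXL4 differed by -0.35 (SE 0.64), and its miR21 array of number 2, at 40.0, was the lowest of the 6. The lysyl hydroxylase gene PLOD2 differed by 0.30 (SE 0.35), with 0.26, 0.33 and 0.33 within the numbers. The prolyl hydroxylase subunit genes P4HA1 and P4HA2 differed by 0.32 (SE 0.26) and -0.32 (SE 0.42). The collagen hydroxylases thus had differences of both signs, between -0.32 and 0.40.

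The main chains of type IV collagen, the network former of basement membranes, were well detected. On their brightest probe sets both were lower with miR21 in all 3 numbers. COL4A1 had signals of 6152, 6233 and 11585 on the miR21 arrays, against 10836, 11358 and 13014 on the control arrays. The miR21 arrays of numbers 1 and 2 were below every control array, and that of number 3 was within the control range (log2 difference -0.62, SE 0.32, limma adjusted p = 0.9999). COL4A2 had 5011, 9593 and 11810.2 on the miR21 arrays, against 7702, 12976 and 13872 on the control arrays. It was lower with miR21 within every number, by -0.62, -0.44 and -0.23, but numbers differed more than groups did (log2 difference -0.43, SE 0.40). A second probe set differed by -0.58 for COL4A1 and by -0.61 for COL4A2. Within number 3 that of COL4A1 was even, at 0.006.

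The genes COL4A1 and COL4A2 are neighbours that point away from each other, and the stretch between their starts serves both. It is shown because both genes were lower with miR21 within every number on their brightest probe sets. In RefSeq on GRCh38.p14 it spans 126 bases, chr13:110307158-110307283, written on the plus strand, with COL4A2 running to the right and COL4A1 to the left. Capitals mark any of 4 motifs, each searched on both strands. The GC box was searched as GGGCGG. For the CCAAT box the letters were those of its name. The TATA box was read as TATAAA. As the core of TEAD factor sites the search used GGAATG.
COL4A1-COL4A2: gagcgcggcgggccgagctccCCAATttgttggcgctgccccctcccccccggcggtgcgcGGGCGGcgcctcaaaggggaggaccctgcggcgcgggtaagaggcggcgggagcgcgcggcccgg
The search found 1 CCAAT box and 1 GC box in it, and neither a TATA box nor a TEAD core. In the 250 bases before the start, a CCAAT box occurs in 32.0% of 35116 RefSeq promoters and a GC box in 42.6%. A match is a description of letters only.

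The 250 bases before the starts of THBS1, the member with the lowest difference, and LAMB1, the member with the highest, are shown with the same motifs in capitals, each in its gene's direction. They lie at chr15:39580829-39581078 on the plus strand and chr7:108003162-108003411 on the minus strand of GRCh38.p14, from RefSeq.
THBS1: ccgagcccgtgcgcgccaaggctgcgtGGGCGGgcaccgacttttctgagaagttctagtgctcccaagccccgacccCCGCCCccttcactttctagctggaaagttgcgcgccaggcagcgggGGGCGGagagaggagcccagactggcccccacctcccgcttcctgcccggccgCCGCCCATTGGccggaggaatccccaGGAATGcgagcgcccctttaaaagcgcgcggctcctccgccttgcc
LAMB1: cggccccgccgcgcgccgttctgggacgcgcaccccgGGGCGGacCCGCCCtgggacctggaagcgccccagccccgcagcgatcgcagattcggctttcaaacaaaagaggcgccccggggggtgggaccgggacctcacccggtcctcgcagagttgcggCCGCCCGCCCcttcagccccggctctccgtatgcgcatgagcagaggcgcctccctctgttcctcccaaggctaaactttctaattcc
THBS1 held 4 GC boxes, a CCAAT box that adjoins one of them, and a TEAD core, while LAMB1 held 4 GC boxes, of which a pair overlap, and none of the other motifs. The table had promoters for 44 members. Of these 72.7% held a GC box, 31.8% a CCAAT box, 15.9% a TATA box and 11.4% a TEAD core. Among all promoters the shares were 42.6%, 32.0%, 10.7% and 11.9%. The member shares count genes, which can have several promoters each, while the background shares count promoters. A gene with more promoters has more chances of a match, so these shares are not like for like. The difference between them was not tested.

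The remaining basement membrane collagens were COL18A1, the source of endostatin, with 3270.2, 7000.0 and 5249 on the miR21 arrays and 2864, 4414 and 4711 on the control arrays (log2 difference 0.34, SE 0.37), and the minor type IV chain COL4A5, with 187, 56.2 and 34.2 on the miR21 arrays and 109.5, 62.3 and 62.3 on the control arrays. COL4A5 was near the filter and differed by -0.08 (SE 0.75), with 0.77, -0.15 and -0.86 within the numbers, so it had no stable direction. HSPG2, which encodes the proteoglycan perlecan, had 1440.2, 933 and 1869 on the miR21 arrays, against 2804, 1976 and 2173 on the control arrays. These groups did not overlap. Its log2 difference was -0.75 (SE 0.35, limma adjusted p = 0.9999), with -0.96, -1.08 and -0.22 within the numbers, and a second probe set differed by -0.58. On that dimmer probe set the groups overlapped. There the control array of number 2, at 68.9, was below the miR21 arrays of numbers 1 and 3, at 72.6 and 80.1. The linker gene NID2 had 3797, 4696 and 5919 on the miR21 arrays and 4157, 5087 and 6726 on the control arrays, and differed by -0.14 (SE 0.31). AGRN, which encodes agrin, differed by -0.23 (SE 0.28), and its 3 probe sets above the filter lay between -0.29 and 0.32.

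Laminin chains stood mostly on the higher side, with 4 of 5 kept members above 0 and a median of 0.31. LAMB1, the laminin beta 1 chain, had signals of 1574, 1747 and 1673 on the miR21 arrays, against 731, 821 and 1260.1 on the control arrays. Every miR21 array was above every control array. The log2 difference was 0.87 (SE 0.31, limma adjusted p = 0.9999), the highest among the kept members, with 1.11, 1.09 and 0.41 within the numbers, and a second probe set differed by 0.69. On that probe set the groups overlapped. There the control array of number 1, at 1501, was above the miR21 arrays of numbers 2 and 3, at 1152 and 1049. LAMB3, the beta 3 chain of the laminin of epithelial anchorage, had 5846, 12446 and 5317 on the miR21 arrays and 3824, 6393 and 6185 on the control arrays (log2 difference 0.45, SE 0.41), and number 3 ran the other way. The alpha 5 chain gene LAMA5 had 3849.8, 5298 and 5051 on the miR21 arrays and 2933, 3664 and 5008 on the control arrays (0.31, SE 0.31). LAMB2 differed by 0.26 (SE 0.56). LAMC1, the gamma 1 chain found in most laminins, was close to even, with 9941, 12508 and 11465 on the miR21 arrays and 10583, 13016 and 11009 on the control arrays (-0.03, SE 0.25). Laminin and type IV collagen, the partner networks of a basement membrane, thus had medians of opposite sign here, and the difference between them was not tested.

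The fibrillar collagens did not share a direction. COL5A1, which encodes the alpha 1 chain of type V collagen, a regulator of fibril thickness, had 509.7, 945 and 2721 on the miR21 arrays, against 1256, 2301 and 3226 on the control arrays. Numbers differed widely in both groups, and within each the miR21 array was the lower, by -1.30, -1.28 and -0.25 (log2 difference -0.94, SE 0.64, limma adjusted p = 0.9999). The other COL5A1 probe sets differed by -0.57 and -1.08. Its partner chain gene COL5A2 was near background, with 174, 60.8 and 97.1 on the miR21 arrays and 115, 48.1 and 37.2 on the control arrays (0.77, SE 0.68). COL27A1 had 752, 1221 and 652 on the miR21 arrays and 653, 961 and 782 on the control arrays (0.09, SE 0.35).

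The type I collagen genes, typical of fibroblasts, were below the upper quartile of detection. COL1A1 was above the filter on 1 of its 5 probe sets, with 824, 171 and 108 on the miR21 arrays and 675, 181 and 173 on the control arrays (-0.16, SE 0.86). The high values belong to number 1 in both groups. COL1A2 had 159.9, 51.4 and 154 on the miR21 arrays and 172, 129.6 and 167 on the control arrays (-0.52, SE 0.56), and its second probe set above the filter differed by 0.28.

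Of the beaded type VI collagen, COL6A1 and COL6A2 were kept. COL6A2 had 671, 1368 and 435 on the miR21 arrays and 457, 839 and 401 on the control arrays. Numbers differed more than groups, and within each the miR21 array was the higher, by 0.55, 0.70 and 0.12 (log2 difference 0.46, SE 0.50). COL6A1 had 717, 542 and 171 on the miR21 arrays and 459, 267 and 203 on the control arrays (0.47, SE 0.60), with its 3 probe sets above the filter between -0.10 and 0.47. COL16A1, a collagen that associates with fibrils, had 12.4, 132 and 81.9 on the miR21 arrays and 133, 239.5 and 94.5 on the control arrays. The miR21 array of number 1 was the lowest of the 6, and the gene passed the filter through its control arrays. The log2 difference was -1.50 (SE 0.93), and it lay between -2.18 and -0.47 when single arrays or numbers were left out. COL12A1 had 4574, 5508 and 6275 on the miR21 arrays and 5259, 6926 and 5903 on the control arrays (-0.15, SE 0.27). COL7A1, the anchoring fibril collagen beneath epithelia, had 471, 603 and 751 on the miR21 arrays and 774, 1216 and 518 on the control arrays (-0.40, SE 0.39), and number 3 ran the other way.

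Fibronectin and the microfibril genes were all kept. FN1, which encodes fibronectin, had 993, 1358 and 1964 on the miR21 arrays and 728, 887 and 1909.5 on the control arrays. The log2 difference was 0.37 (SE 0.45), and its 4 probe sets above the filter were all higher, between 0.16 and 1.02. The fibrillins, which polymerise into microfibrils, stood on the other side. FBN2 had 349, 306 and 294 on the miR21 arrays, against 807, 729 and 402 on the control arrays, without overlap (log2 difference -0.97, SE 0.36, limma adjusted p = 0.9999). Within the numbers it differed by -1.21, -1.25 and -0.45, and the control array of number 3 was the lowest of its group. FBN1 had 234, 232 and 380.1 on the miR21 arrays and 402, 573 and 354 on the control arrays (-0.66, SE 0.37), and a second probe set differed by -0.76.

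The latent TGF-beta binding proteins, which tether the growth factor to microfibrils, differed by -0.36 to 0.19. LTBP1 had 1135, 2266 and 2423 on the miR21 arrays and 1087, 3114 and 2535 on the control arrays (log2 difference -0.15, SE 0.49). LTBP3 was lower with miR21 within every number, by -0.56, -0.36 and -0.15 (log2 difference -0.36, SE 0.36). LTBP2 differed by 0.19 (SE 0.38), with a second probe set at -0.28. FBLN1, the fibulin 1 gene, differed by -0.19 (SE 0.35), but its other probe sets above the filter by 0.23 and 0.55, so its direction depends on the probe set.

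**Figure D2:**
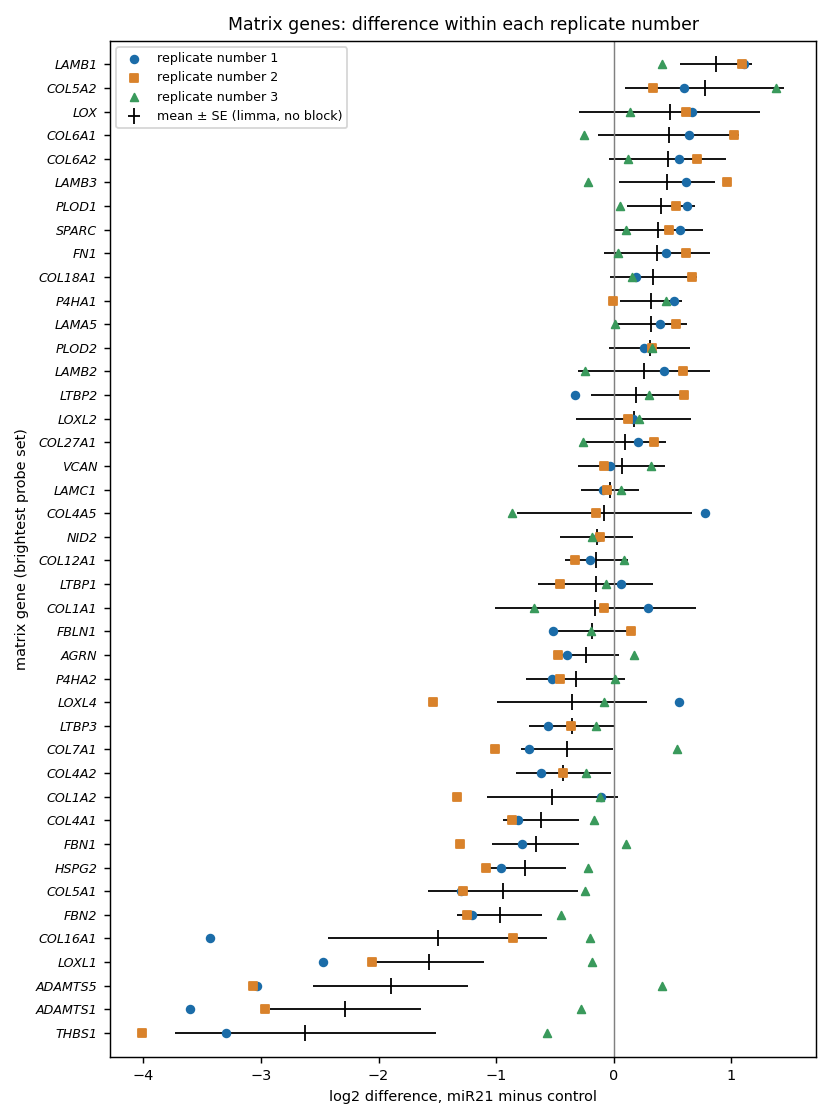
Log2 difference, miR21 minus control, of the 42 matrix genes above the filter, ordered by the mean; coloured symbols are the differences within replicate numbers 1, 2 and 3, and black ticks with bars are the mean and its SE from limma without the block. THBS1 is lowest at -2.62 and LAMB1 highest at 0.87, and the symbols of number 3 lie nearer 0 than those of numbers 1 and 2 for most of the genes at either end.

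Over the 42 kept members, 18 were higher and 24 lower, and the median was -0.15, against -0.01 over all 12206 genes. Within numbers 1, 2 and 3 the members' median was -0.062, -0.100 and -0.026, nearer 0 each time. It was 0.016 without miR21 replicate 1 (0.00017 over all genes). With each array centred on its median it was -0.046, where the median over all genes was 0.089. Being more than 1 log2 unit lower on average was the case for 5 members (11.9%, background 2.6%), one of them COL16A1, which passed the filter through the control arrays, and 0 were more than 1 unit higher (background 1.83%). Within number 1, 7 members were more than 1 unit lower (background 5.88%), COL16A1 among them, and 1 higher (background 4.37%). Within number 2, 11 were lower by that much (background 7.51%) and 2 higher (background 5.04%). Within number 3, 0 were lower by that much (background 1.49%) and 1 was higher (background 1.76%), namely COL5A2. That gene was near background and passed the filter through its miR21 arrays, as its control mean lay below the filter. In all 3 numbers together 0 members passed 1 unit, on either the lower side (background 0.0983%) or the higher side (background 0.156%). In numbers 1 and 2 alike, 6 members were past 1 unit on the lower side (14.3%, background 3.51%): THBS1, ADAMTS1, ADAMTS5, LOXL1, FBN2 and COL5A1. On the higher side it was LAMB1 alone (background 2.33%).

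The numbers therefore did not show the matrix genes alike. The median size of a member's difference, regardless of sign, was 0.556 in number 1, 0.590 in number 2 and 0.211 in number 3, against 0.340, 0.382 and 0.205 over all genes. Pearson's r across the 42 members was 0.843 between numbers 1 and 2 (0.696 over all genes). It was 0.225 between numbers 1 and 3 (0.159) and 0.243 between numbers 2 and 3 (0.0764). These are descriptions across genes, which are not independent replicates and share the array pair. Numbers 1 and 2 gave 35 of 42 members the same sign (74.7% of all genes). For numbers 1 and 3 that held for 25 members (57.0%), and 28 shared a sign between numbers 2 and 3 (50.8%).

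**Figure D3:**
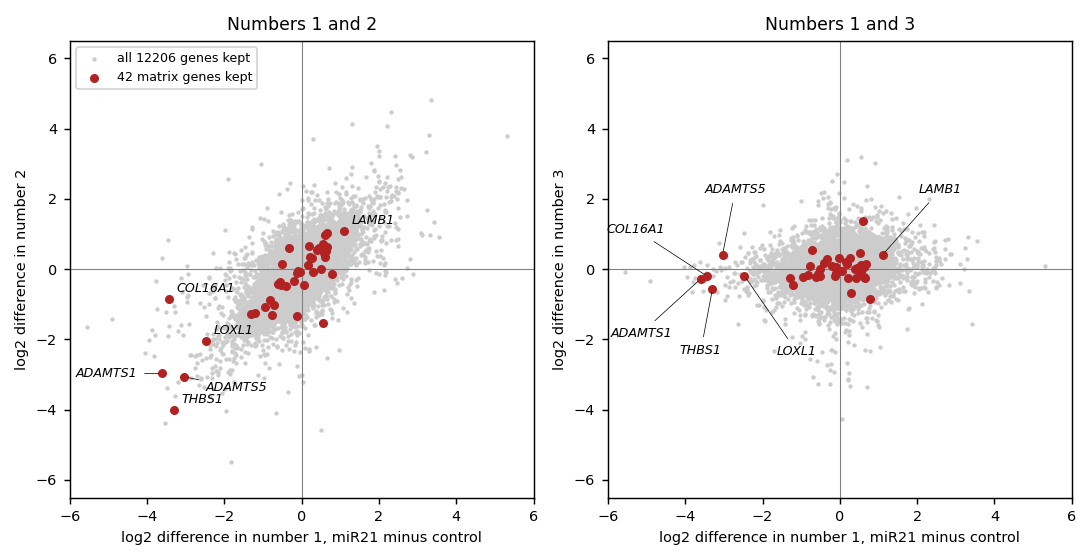
Log2 differences, miR21 minus control, within replicate number 1 (horizontal) against number 2 (left panel) and number 3 (right panel); grey points are all 12206 genes above the filter and red points the 42 matrix genes. In the left panel THBS1, ADAMTS1, ADAMTS5 and LOXL1 lie more than 2 log2 units below 0 on both axes, and in the right panel the same genes lie between -0.56 and 0.41 on the vertical axis.

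Leaving out both arrays of number 3, the block fit called 25 members (background 32.8%), 11 higher (background 15.9%) and 14 lower (background 16.9%), on 1 residual degree of freedom. Leaving out number 1, whose arrays stood apart, it called 2 members (background 0.483%), both lower (background 0.188%), again on 1 residual degree of freedom. These were THBS1, at -2.29 (limma adjusted p = 0.00676), and ADAMTS1, at -1.62 (limma adjusted p = 0.0369). The numbers left in were not alike: within numbers 2 and 3 THBS1 differed by -4.01 and -0.56, and ADAMTS1 by -2.97 and -0.28. Without number 2, on as few degrees of freedom, limma called 0 members (background 0%). Before adjustment, 7 of 42 members had a limma p below 0.05, beside 905 of all 12206 genes.

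Several probe sets read the same gene, and the brightest was chosen by its mean signal, not by its difference. The others come from the same arrays, so they are no separate check on effects of array or replicate. Of 28 members with at least 2 probe sets above the filter, 20 had the same sign in all of them and 8 did not. Those 8 were AGRN, COL12A1, COL1A2, COL6A1, FBLN1, LTBP2, LTBP3 and VCAN. Among the 13 members above, LOXL1, FBN2, PLOD1 and COL16A1 had a single such probe set, and each of the others had the same sign on all of those above the filter. For ADAMTS1, HSPG2 and LAMB1 the groups did not overlap on the brightest probe set but overlapped on the other.

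**Figure D4:**
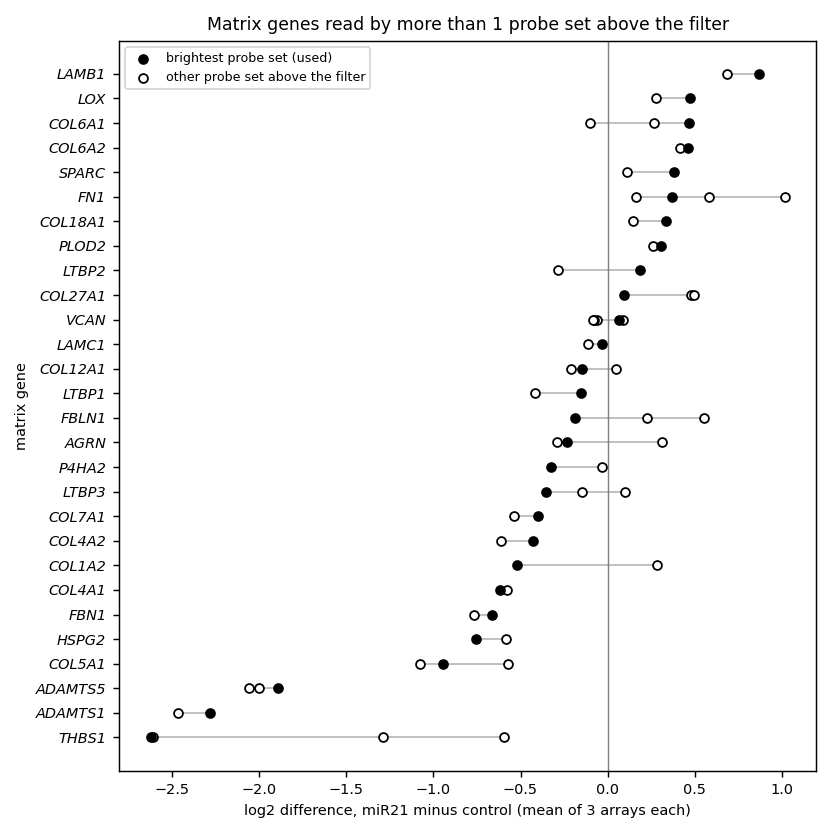
Log2 difference, miR21 minus control, of every probe set above the filter for the 28 matrix genes that have at least 2; filled circles are the brightest probe set, open circles the others and grey lines the range. THBS1, ADAMTS1, ADAMTS5 and COL5A1 lie below 0 and LAMB1 and FN1 above 0 on each of their probe sets, while 8 genes straddle 0.

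Members that are next to each other on a chromosome could be set side by side. There are 6 pairs of adjacent protein-coding genes among the members, and both genes were kept in 3. ADAMTS1 and ADAMTS5 on chromosome 21 differed by -2.28 and -1.89, COL4A1 and COL4A2 on chromosome 13 by -0.62 and -0.43, and COL6A1 and COL6A2 on chromosome 21 by 0.47 and 0.46. In each of these 3 pairs both genes thus had the same sign on their brightest probe sets. For COL6A1 the sign depends on the probe set, as those above the filter lay between -0.10 and 0.47. The share of same-sign pairs among all adjacent genes was not computed.

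Other genes of the pathway were read from lists of 29 collagen folding and processing genes and 92 further matrix genes. Of 22 kept collagen processing genes, 0 were called by limma, with or without the block, and the median was -0.14. Before adjustment, p with the block was below 0.05 for 0 higher genes (background 9.81%) and 4 lower genes of the 22 (background 10.3%). P3H2, a collagen prolyl 3-hydroxylase, had 1470.4, 1494 and 6519 on the miR21 arrays, against 5604, 6159 and 7921 on the control arrays (log2 difference -1.42, SE 0.58). FKBP14, an isomerase of the endoplasmic reticulum, had 183, 164 and 369 on the miR21 arrays, against 394, 672 and 461 on the control arrays, without overlap (-1.16, SE 0.43). TGM2, a crosslinking transglutaminase, differed by -0.88 (SE 0.62) and PCOLCE2, an enhancer of procollagen cleavage, by -0.79 (SE 0.44).

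Of 51 kept further matrix genes, limma likewise called 0, with or without the block, and the median was -0.25. Here p with the block was below 0.05 before adjustment for 4 higher genes (background 9.81%) and 11 lower genes (background 10.3%) of the 51. SDC4, a cell-surface heparan sulfate proteoglycan, had 4359, 4978 and 4969 on the miR21 arrays, against 10119.9, 9697 and 7406 on the control arrays, without overlap (log2 difference -0.92, SE 0.26). TGFBI, a secreted adhesion protein induced by TGF-beta, had 624, 1462 and 3357 on the miR21 arrays, against 3207, 6541 and 5346 on the control arrays (-1.73, SE 0.61). CCN1, a matricellular protein, had 285, 444 and 2369 on the miR21 arrays, against 1756, 2389 and 3123 on the control arrays (-1.82, SE 0.74). COL4A4, a minor type IV collagen chain, differed by -0.93 (SE 0.44). In all of the lower genes named here, as in THBS1, number 3 showed the smallest difference. The 4 higher genes, named after their values were seen, were SULF2, an extracellular sulfatase of heparan sulfate, at 0.43 without overlap (SE 0.27), the netrin gene NTN4 at 0.52 (SE 0.90), the hyaluronan synthase gene HAS3 at 0.42 (SE 0.48) and NPNT, which encodes the integrin ligand nephronectin, at 0.39 (SE 0.41).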

How the data were processed

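Per the labels' protocols, biotinylated RNA made from 100 ng of total RNA of each of 6 samples was read on Affymetrix U133 Plus 2.0 arrays. The authors deposited linear intensity values for each probe set, made with MAS5 per the submitters' processing notes. The MAS5 version and parameters are not given in the sources. The 2% trimmed mean of each array was 500.055 to 500.076. MAS5 signals of dim probe sets scatter widely on the log scale, and a shift shared by most genes is removed by such scaling.

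Probe sets naming 1 gene (41091 of 54675) were read by the platform annotation, with symbols looked up in RefSeq GRCh38.p14 (41037 Entrez identifiers matched, 0 symbols updated). Each gene was read by its brightest probe set (mean log2 over 6 arrays). Log2 signals were fitted with limma 3.58.1 (R 4.3.3, eBayes with trend), with Benjamini-Hochberg adjustment over 12206 genes, no pseudocount and a threshold of 0.05. Figures used Python 3.11.15. The replicate numbers come from the titles; deviations of same-numbered arrays correlated at 0.899, 0.638 and 0.635, each above 0.1, against -0.754 to 0.411 for different numbers, so the numbers were taken as pairs in an alternative fit. The script was tested on simulated data.

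Members with an unadjusted p under 0.05 in either fit or groups that do not overlap were to be given by array, and up to 4 genes for each other list; the other members' values were added after they had been seen. The members and lists were chosen with earlier results of these data known. The number of arrays limits the precision.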

Additional observations from a re-analysis of the deposited data

How the results depend on the processing

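With the replicate block limma called 4 genes (0 without it), none a member, and the block changed no other call. When single arrays were left out, 0 members were called, members with groups that do not overlap ranged from 8 to 14, with 9.71% to 21.7% of all genes (6 and 6.65% with all arrays), and the members' median from -0.23 to 0.016 (-0.15 with all arrays), above 0 without miR21 replicate 1. With the block and both arrays of number 1 left out, limma called 59 genes and 2 members, and 14 members had no overlap (26.1% of all genes). Without number 2, 10 had none (14.1% of all genes) and the median was -0.037. Without number 3 it called 4004 genes and 25 members, 19 had no overlap (29.5% of all genes) and the median was -0.098. Fewer arrays leave fewer values that can overlap. Median centring left 3 members without overlap (3.3% of all genes) and a median of -0.046, and moved the median of all genes to 0.089. The members' median was -0.091 with array weights and -0.104 with the brightest probe set outside the _x_at and _s_at classes. For these changes the cause was not tested.

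The direction turned in 10 cases under other settings. COL4A5 was 0.13 with quantile normalization and 0.020 with median centring, where LAMC1 was 0.070. With the mean of probe sets FBLN1 was 0.17, LTBP2 -0.047, LOXL2 -0.100 and VCAN -0.013. With the brightest probe set outside those classes COL6A1 was -0.104, AGRN 0.32 and LTBP3 0.0996. With the block, LAMC1 turned to 0.00059 without number 1. COL27A1 turned to -0.030, LTBP2 to -0.015 and LOXL4 to 0.23 without number 2. COL1A1 turned to 0.10, COL4A5 to 0.31 and VCAN to -0.056 without number 3. The 13 members with an unadjusted limma p below 0.05 with the block were picked on these same arrays, so a kept sign was favoured. Leaving out single arrays turned the sign of 15 members, none of them among these 13. Their ranges were -1.02 to 0.49 for COL1A1, -0.80 to 0.015 for COL1A2, -0.17 to 0.28 for COL27A1, -0.78 to 0.45 for COL4A5, -0.44 to 0.073 for FBLN1, -0.25 to 0.68 for LAMB2, -0.11 to 0.060 for LAMC1, -0.091 to 1.21 for LOX, -0.22 to 0.53 for LOXL2, -0.79 to 0.30 for LOXL4, -0.61 to 0.19 for LTBP1, -0.013 to 0.50 for LTBP2, -0.31 to 0.039 for NID2, -0.67 to 0.018 for P4HA2 and -0.26 to 0.30 for VCAN. The 13 kept their sign when arrays or numbers were left out but also moved, over -4.03 to -1.71 for THBS1, -3.28 to -1.62 for ADAMTS1, -3.05 to -1.31 for ADAMTS5, -2.26 to -1.12 for LOXL1, -2.18 to -0.47 for COL16A1, -1.28 to -0.78 for FBN2, -1.60 to -0.39 for COL5A1, -1.02 to -0.48 for HSPG2, -0.92 to -0.46 for COL4A1, -0.70 to -0.067 for COL4A2, 0.71 to 1.10 for LAMB1, 0.27 to 0.57 for PLOD1 and 0.012 to 0.84 for COL6A2.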
